A study of Mus musculus with 6 samples.

Results

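The measurements concern 9 genes that mark disease-associated microglia, followed here in myeloid cells of healthy adult mouse brain. They were taken by symbol from the feature list that all 6 libraries share, and 8 of the 9 have an entry there: Apoe, Lpl, Cst7, Spp1, Gpnmb, Cd9, Lgals3 and Fabp5. Clec7a (ENSMUSG00000079293, mm10 chromosome 6, 129461591 to 129472779), the gene of the beta-glucan receptor Dectin-1, has no entry and was not analysed here. GENCODE M21 classes it as a polymorphic pseudogene, and 0 of the 82 genes of that class have an entry.

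Live CD45+ CD11b+ cells were sorted from whole brains of 3 male C57BL/6J mice at postnatal day 89 after cold Dounce homogenization, a mechanical dissociation without enzymes. Mouse 2 was dissociated with inhibitors of transcription and translation (DNC-INHIB), and mice 1 and 3 were dissociated without them (DNC-NONE). Every mouse was captured with both the V3.0 and the V3.1 version of the 10X 3' kit, so each kit has 3 libraries. The deposited values are counts of UMIs (unique molecular identifiers, each standing for 1 captured transcript) per gene and cell barcode.

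Microglia at rest hold a homeostatic program of receptors and transcription factors such as P2ry12, Cx3cr1 and Sall1. In neurodegeneration, demyelination and early postnatal white matter, some microglia lower this program and express genes of lipid uptake, lysosomal digestion, secreted matrix proteins and surface receptors, partly under control of the lipid receptor Trem2. Several of the same genes are expressed at rest by border macrophages of the meninges, choroid plexus and perivascular spaces, or by neutrophils, which the sort also collects.

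Values per library follow the order V3.0 then V3.1 of mouse 1, of mouse 2 and of mouse 3. The libraries held 15109090, 11175790, 17006892, 14693129, 6275898 and 18872816 UMIs. Barcodes were kept when they held between 1000 and 4000 genes, no more than 12000 UMIs and a mitochondrial share of 15% or less, which 19725 of 29412 (67.1%) did. The V3.0 library of mouse 3 stood apart, with 21.5% of its 4401 barcodes kept against 70.0% to 76.8% in the other libraries. In it 3452 barcodes had fewer than 1000 genes, and its median was 809 UMIs per barcode against 3031 to 3409 elsewhere. Its kept microglia had a median of 3453.5 UMIs, within the 3388.5 to 3710 of the other libraries, and results are given with and without it. Between 1 and 14 barcodes were shared by each pair of libraries, 98 barcodes occurred in more than 1 library, and 31 of these were in gated cells.

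Cell types were assigned from summed UMIs of marker genes, none of them a member of the list. Microglia needed at least 3 UMIs of P2ry12, Tmem119, Siglech and Sparc and at most 1 UMI of each other type's markers. This gave 2992, 2492, 3988, 2896, 864 and 3511 cells, 16743 in all. Border macrophages needed at least 5 UMIs from at least 2 of 7 genes (Mrc1, Pf4, Ms4a7, F13a1, Cbr2, Cd163 and Lyve1), and 45 cells passed, 10, 31 and 4 of them from mice 1, 2 and 3. Neutrophils needed at least 10 UMIs of S100a8 and S100a9 and at least 2 of 8 granule and receptor genes such as Retnlg and Ly6g, and 267 cells passed, 106, 92 and 69 by mouse. Both gates also allowed at most 3 UMIs of the microglial gate genes, which favours low levels of other microglial genes in these cells. A further 113 monocytes and 30 T or NK cells were set aside. Another 2527 cells met no gate, 2194 of them with more than 1 UMI of neutrophil markers.

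Genes outside the gates showed how far the types were separated. Sall1, a transcription factor of microglia, had a UMI in 73.1% of microglia and in 0 of 45 border macrophages, which allows a share of up to 6.67%. Gpr34 and Olfml3 were found in 99.5% and 97.5% of microglia, Fcrls in 93.9% and P2ry13 in 76.4%. These genes separate the types less well than Sall1. Among border macrophages Gpr34 was found in 68.9%, Olfml3 in 53.3%, Fcrls in 80% and P2ry13 in 26.7%. In border macrophages Clec10a was found in 22.2%, Ccl24 in 8.89% and Cd209f in 4.44%. Stab1 and Maf, found in 84.4% and 95.6% of border macrophages, were also in 55.1% and 95.1% of microglia and separate the types poorly. In neutrophils Msrb1 was found in 99.6%, Wfdc21 in 98.5%, Hdc in 76.8%, Clec4d in 48.3%, Trem1 in 23.6% and Stfa2l1 in 16.5% of cells, and Csf3r in 62.2% against 44.6% of microglia. RNA of cells outside the sort was also present in microglia: marker genes summed to 0.765 CPM (UMIs of a gene per 1000000 UMIs of the summed cells) for neurons, 0.981 for astrocytes, 23.4 for oligodendrocytes, 0.432 for endothelial cells and 1.63 for red blood cells. Mbp, the most abundant of these markers, had a UMI in 6.62% of microglia and 20.97% of neutrophils, more microglia than any member but Apoe and Cd9. Of the 98 red blood cell UMIs, 90 came from the V3.1 library of mouse 2 (8.53 CPM), the library highest in Spp1, and the other libraries had 0 to 0.614 CPM.

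How often resting microglia carry transcripts of these genes was the first question. A share of cells with a UMI depends on depth, so every cell was thinned at random to 2000 UMIs, which left 16038 microglia and left out 705 with fewer. Intervals of shares and ratios are exact 95% intervals and cover counting error only. Before thinning, microglia had a median of 3491 UMIs and neutrophils of 5631, and all 267 neutrophils entered at 2000 UMIs.

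Of the genes of lipid handling, Apoe (ENSMUSG00000002985, mm10 chromosome 7, 19696109 to 19699188), the apolipoprotein that carries cholesterol between brain cells and binds Trem2, stood at 263, 296, 399, 364, 356 and 385 CPM in summed microglia. Mouse 1 was the lowest with both kits, and the values of the kits overlapped. The share of microglia with an Apoe UMI was 17.6%, 19.1%, 15.5%, 17.6%, 15.3% and 20.7%, and 17.9% over all libraries (17.3 to 18.5). In neutrophils thinned to the same depth the share was 1.50%, from 4 cells. Apoe was unevenly spread over the thinned microglia: 1552 cells had 1 UMI, while 171 cells (1.07%) had 10 or more and held 47.5% of its UMIs. Microglia with 1 UMI of a border macrophage marker had Apoe in 29.0% of 214 cells (23.0 to 35.5) against 17.7% of 15824 cells without such a UMI, and held 7.31% of the Apoe UMIs.

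Lpl (ENSMUSG00000015568, chromosome 8, 68880491 to 68907448), the lipoprotein lipase that releases fatty acids from lipoproteins, stood at 14.2, 11.9, 9.13, 15.1, 11.4 and 14.0 CPM. No library stood clear of the others. A UMI was present in 2.01%, 2.05%, 1.62%, 1.83%, 2.15% and 2.49% of microglia, together 321 cells or 2.00% (1.79 to 2.23). Neutrophils had Lpl in 0 of 267 cells, a limit of 1.12%. Before thinning, the 10 microglia highest in Lpl held 19.4% of its UMIs, and the highest cell, in the V3.1 library of mouse 2, had 36.

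Fabp5 (ENSMUSG00000027533, chromosome 3, 10012548 to 10016607), a carrier of fatty acids in the cytosol, stood at 1.14, 2.27, 1.88, 2.08, 2.93 and 3.28 CPM from 9 to 41 UMIs per library. Its lowest value came from V3.0 of mouse 1, its highest from V3.1 of mouse 3. It was found in 0.238%, 0.369%, 0.271%, 0.388%, 0.358% and 0.576% of microglia, 0.368% over all (0.280 to 0.474). No microglial cell held more than 2 UMIs of it. Fabp5 has processed copies in the genome, such as Fabp5l2, which has no entry in the feature list, so reads of a copy cannot be told apart from its own.

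Of the lysosomal genes, Cst7 (ENSMUSG00000068129, chromosome 2, 150570415 to 150578944), which encodes cystatin F, an inhibitor of lysosomal cathepsins, stood at 11.3, 9.63, 10.4, 9.76, 9.43 and 8.87 CPM. The 6 libraries lay close together. A UMI was present in 1.77%, 1.48%, 1.76%, 1.55%, 1.31% and 1.33% of microglia, 1.57% over all (1.38 to 1.78), against 0.375% of neutrophils (0.00948 to 2.07), an interval that covers the microglial share. Gpnmb (ENSMUSG00000029816, chromosome 6, 49036546 to 49070929), a glycoprotein of lysosomes and phagosomes, had 0 UMIs in the 16743 microglia, which allows up to 0.0499 CPM. Gpnmb also had 0 UMIs in border macrophages and in neutrophils, with limits of 15.7 and 1.86 CPM.

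Among secreted proteins, Spp1 (ENSMUSG00000029304, chromosome 5, 104435118 to 104441050), the matrix protein osteopontin, had 10, 7, 5, 41, 2 and 5 UMIs in microglia, or 0.877, 0.793, 0.362, 3.88, 0.651 and 0.400 CPM. The V3.1 library of mouse 2 lay above the other libraries. Of the 70 UMIs, 29 came from 1 cell of that library, and without this cell the library stood at 1.14 CPM. Spp1 was found in 15 thinned microglia, 0.0935% (0.0524 to 0.154), and in 0.375% of neutrophils (0.00948 to 2.07), so the microglial share cannot be told apart from that in neutrophils.

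Lgals3 (ENSMUSG00000050335, chromosome 14, 47367751 to 47386160), the galectin that is secreted and marks damaged lysosomes, stood at 4.38, 6.46, 4.13, 6.35, 3.58 and 4.72 CPM. The V3.1 library was above the V3.0 library in each mouse. Cells with an Lgals3 UMI made up 0.613%, 0.410%, 0.704%, 0.917%, 1.08% and 0.850% of thinned microglia, 0.730% over all (0.604 to 0.874), an order of libraries unlike that of the CPM. In the V3.1 library of mouse 1, cells of 19 and 12 UMIs were the highest of all, and without the first the library stood at 4.31 CPM. In neutrophils 77.5% of cells had Lgals3, so the cell type that lacked it at the same depth was the T or NK cells, at 0 of 29, a limit of 10.3% that lies above the microglial share.

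Free RNA of neutrophils can add Lgals3 to microglia. S100a8 and S100a9 together served as tracer, with 2.74 UMIs per microglial cell against 2379 per neutrophil. At the neutrophils' ratio of Lgals3 to the tracer, 101 of the 301 microglial Lgals3 UMIs would be carried in, and observed Lgals3 was 1.91, 5.85, 4.18, 3.55, 2.80 and 2.15 times this amount by library. The same calculation gave 3.83 of 131 UMIs for Fabp5, 0.145 of 70 for Spp1, 0.0723 of 600 for Cst7, 65.0 of 96778 for Cd9 and 1.37 of 20874 for Apoe.

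Cd9 (ENSMUSG00000030342, chromosome 6, 125460266 to 125494791), the surface tetraspanin that organizes receptors in the membrane, stood at 1772, 1728, 1522, 1463, 1608 and 1594 CPM. Mouse 1 was highest and mouse 2 lowest with both kits. A UMI was present in 94.6%, 93.6%, 91.6%, 90.5%, 93.5% and 92.2% of thinned microglia, 92.5% over all (92.1 to 92.9). Cd9 is therefore found in most resting microglia, unlike the other members. Gm28809 and Gm26728 overlap it on the opposite strand.

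**Figure D1:**
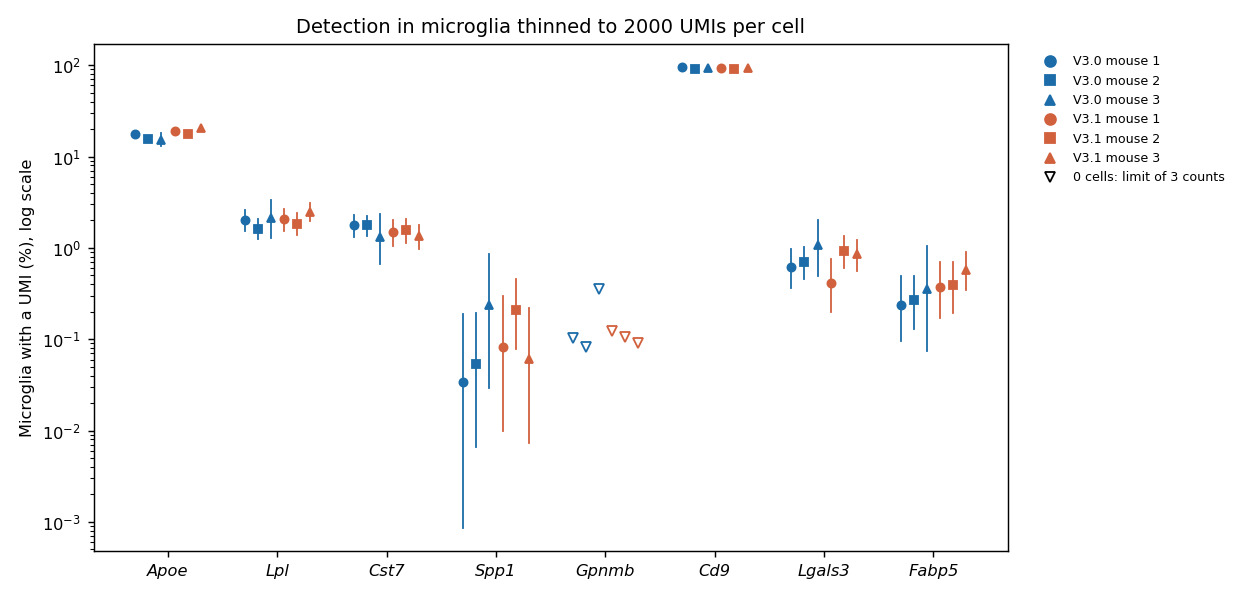
Share of microglia with a UMI of each gene (vertical axis, log scale) in 6 libraries at 2000 UMIs per cell, with exact 95% intervals. Cd9 is near 92.5%, Apoe near 17.9%, the other genes lie lower, and Gpnmb is drawn at the limit that 0 cells allow.

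The comparison of kits asks whether capture chemistry changes how much of a rare transcript is read, which matters for genes seen in few cells per library. Every mouse contributed a library to each kit, so the biology of the brains was the same on both sides. Microglial UMIs were summed per library and tested by edgeR with TMM scaling. Shares were compared by an exact permutation test. Neither this test nor the main edgeR fit pairs the libraries of a mouse. A gene was called at an adjusted p (Benjamini-Hochberg over all genes tested) below 0.05 and a log2 fold change of 0.58 or more either way.

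Of the 9 listed genes, 6 had enough UMIs to be tested, and edgeR called 0, against 3.04% of all genes (1.51% higher and 1.53% lower with V3.1, 362 of 11893). At an unadjusted p below 0.05 edgeR had 1 member and 3418 of all genes, and DESeq2 called 0 members and 277 genes. The members had a median log2 fold change of 0.16 against 0.00 over all genes tested. Spp1 and Gpnmb were below the filter on low counts.

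Apoe averaged 339 ± 69.8 CPM with V3.0 and 348 ± 46.9 with V3.1 (SD, n = 3 libraries each), a log2 fold change of 0.06 (standard error 0.13, edgeR adjusted p = 0.821). Its share of cells averaged 16.1% ± 1.26 with V3.0 and 19.1% ± 1.55 with V3.1 (SD, n = 3), and V3.1 was the higher in 3 of 3 mice (exact permutation p = 0.2, where 0.1 is the smallest possible). Without the V3.0 library of mouse 3 the shares were 16.6% and 19.1% (exact permutation p = 0.4), and the log2 fold change was 0.09. Lpl averaged 11.6 ± 2.54 and 13.7 ± 1.61 CPM (SD, n = 3), a log2 fold change of 0.27 (standard error 0.16, edgeR adjusted p = 0.312, and 0.410 without that library). Its shares, 1.93% ± 0.272 and 2.12% ± 0.333 (SD, n = 3), again had V3.1 as the higher in 3 of 3 mice (exact permutation p = 0.5).

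Fabp5 averaged 1.98 ± 0.898 CPM with V3.0 and 2.54 ± 0.643 with V3.1 (SD, n = 3), a log2 fold change of 0.58 (standard error 0.34, edgeR adjusted p = 0.278, range over the alternatives 0.197 to 0.676). Its share averaged 0.289% ± 0.0622 and 0.444% ± 0.115 (SD, n = 3), with V3.1 the higher in 3 of 3 mice (exact permutation p = 0.1). Without the V3.0 library of mouse 3 the V3.0 mean was 0.255% (exact permutation p = 0.2, the smallest then possible). Without thinning the means were 0.635% and 0.864% (exact permutation p = 0.4).

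Cst7 averaged 10.4 ± 0.940 and 9.42 ± 0.478 CPM (SD, n = 3), a log2 fold change of −0.15 (standard error 0.14, edgeR adjusted p = 0.514). Its shares were 1.61% ± 0.260 and 1.45% ± 0.110 (SD, n = 3, exact permutation p = 0.4), and 3.18% and 2.56% without thinning (exact permutation p = 0.1). Cd9 averaged 1634 ± 127 and 1595 ± 133 CPM (SD, n = 3), a log2 fold change of −0.02 (standard error 0.08, edgeR adjusted p = 0.916). Cd9 was found in 93.2% ± 1.54 and 92.1% ± 1.54 of cells (SD, n = 3), lower with V3.1 in each mouse (exact permutation p = 0.5). Without the V3.0 library of mouse 3 the log2 fold changes were −0.19 for Cst7, −0.03 for Cd9, 0.76 for Fabp5 and 0.46 for Lgals3, and edgeR called none of them.

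Lgals3 averaged 4.03 ± 0.413 CPM with V3.0 and 5.84 ± 0.975 with V3.1 (SD, n = 3), a log2 fold change of 0.50 (standard error 0.20, edgeR adjusted p = 0.117, range over the alternatives 0.0232 to 0.815). The lowest p came with the mouse as a block, at a log2 fold change under the threshold. Over the alternatives Lgals3 had log2 fold changes of 0.0962 to 0.710. Its share was 0.797% ± 0.245 with V3.0 and 0.725% ± 0.275 with V3.1 (SD, n = 3, exact permutation p = 0.8). At 3000 UMIs the shares were 1.06% and 1.22%, without thinning 1.28% and 1.29%, and without the V3.0 library of mouse 3 0.658% and 0.725%. The direction of the share thus changes with the setting. Neither the main nor the blocked edgeR fit called Lgals3, so no order of the kits is read for it. Spp1 was found in 0.109% of cells with V3.0 and 0.118% with V3.1 (exact permutation p = 0.8). Tested without the filter, Spp1 was higher with V3.1 by 1.46 on the log2 scale (standard error 0.47, edgeR adjusted p = 0.0213). With the V3.0 library of mouse 3 left out, Spp1 passed the filter, and this filtered fit gave 1.48 (edgeR adjusted p = 0.293). The call without the filter rests on the V3.1 library of mouse 2, where 1 cell gave 29 of 41 UMIs, and the other V3.1 libraries, at 0.793 and 0.400 CPM, lay within the range of V3.0, so no difference of kits is read for Spp1.

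Inhibitors of transcription and translation hold the transcriptome in the state it had at dissociation. The comparison asks whether the members change while the brain is homogenized and sorted. This comparison has 1 mouse with inhibitors against 2 without, so variation among inhibited mice was not measured. UMIs of both kits were summed per mouse.

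With 7 members tested, edgeR called 0, against 0.346% of all genes (0.192% higher and 0.154% lower with inhibitors, 45 of 13020). At an unadjusted p below 0.05 edgeR had 1 member and 893 of all genes, while DESeq2 called 0 members and 16 genes. The members had a median log2 fold change of 0.06 against −0.01 over all genes. Apoe stood at 277, 384 and 379 CPM in mice 1, 2 and 3. Mouse 3, without inhibitors, was level with mouse 2, and the log2 fold change was 0.24 (standard error 0.14, edgeR adjusted p = 0.793, range 0.00228 to 1.00 over the alternatives). The lowest p came with the V3.0 libraries alone, at a log2 fold change of 0.41, which is below the fold threshold. Spp1 stood at 0.840, 1.89 and 0.449 CPM, highest in the inhibited mouse, whose V3.1 library holds the cell with 29 UMIs. Its log2 fold change was 1.51 (standard error 0.47, edgeR adjusted p = 0.332, range 0.0314 to 1.00). It passed the threshold with the V3.1 libraries alone (2.76, adjusted p = 0.0314) and when low counts were left unfiltered (1.52, adjusted p = 0.0359), and was −1.13 with the V3.0 libraries alone (adjusted p = 0.834).

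For Lpl the mice stood at 13.2, 11.7 and 13.5 CPM, and for Cst7 at 10.6, 10.1 and 8.98. The inhibited mouse was lowest in Lpl and between the others in Cst7, at log2 fold changes of −0.17 and 0.06 (edgeR adjusted p = 0.900 and 0.978). Fabp5, at 1.63, 1.97 and 3.21 CPM, had −0.24 (edgeR adjusted p = 0.950). Cd9, at 1753, 1496 and 1597 CPM, was lowest in the inhibited mouse (−0.15, edgeR adjusted p = 0.826). Lgals3, at 5.29, 5.09 and 4.49 CPM, had 0.07 (edgeR adjusted p = 0.981).

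Border macrophages come from a lineage close to microglia and live beside vessels and in the meninges, where they clear lipids and debris. Neutrophils are short-lived granulocytes of blood and marrow. A few cells of either kind counted as microglia would add to the list's genes, so the levels of each gene in these cells were compared with microglia of the same mice. UMIs were summed per mouse and type and fitted together by edgeR. The filter on low counts asks for about 18.0 CPM in 3 sums. Lgals3 and Fabp5 lay below it in microglia and Apoe in neutrophils, so they entered through other types, where they are high. This favours a difference without fixing it, so those fold changes are given without p. Counts of called members serve as description. Ratios of pooled CPM use library totals.

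Of the 9 listed genes 4 entered the fit, and in border macrophages against microglia edgeR called 3 higher and 1 lower, against 13.8% of all genes (7.47% higher and 6.31% lower, 1033 of 7496). The members' median log2 fold change was 4.08, and that of all genes was −0.20. Only Apoe and Cd9 lay above the filter's level in both types, 1 higher and 1 lower, with a median of 2.34. In neutrophils against microglia 2 were higher and 1 lower, against 68.8% of all genes (30.1% higher and 38.8% lower), with medians of 2.67 and −0.28. Those 3 calls were of genes below the filter's level in 1 of the types. Cd9, the 1 member above it in both types, was not called (−0.05). In border macrophages against neutrophils 1 was higher and 2 were lower, against 42.2% of all genes (19.6% higher and 22.6% lower), with medians of −1.88 and −0.00. The member called higher, Apoe, lay below the filter's level in neutrophils. Of the 3 others 0 were higher and 2 lower, with a median of −2.22. Leaving out the V3.0 library of mouse 3 changed the call of Fabp5 in 2 of these comparisons and of no other member.

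Scaling matters here, since S100a8 and S100a9 together stood at 393053 CPM in neutrophils. TMM factors were 0.479 to 0.526 in neutrophils, 1.46 to 1.47 in microglia and 1.12 to 1.64 in border macrophages. With library totals in place of TMM, the calls in neutrophils against microglia changed from 2253 higher and 2906 lower to 889 and 5644, with a median over all genes of −1.81. In border macrophages against microglia they changed from 560 and 473 to 481 and 905 (median −0.47). In border macrophages against neutrophils they changed from 1469 and 1694 to 3093 and 672 (median 1.23).

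Apoe stood at 277, 384 and 379 CPM in microglia, at 45473, 45865 and 20188 in border macrophages and at 11.0, 18.0 and 4.67 in neutrophils of mice 1, 2 and 3. Border macrophages were far above microglia in every mouse and neutrophils far below, with no overlap. Apoe was found in 100% of the 45 border macrophages at 2000 UMIs. The means were 347 ± 60.5, 37176 ± 14713 and 11.2 ± 6.68 CPM (SD, n = 3 mice). Pooled, border macrophages had 125 times the microglial level (122 to 128) and microglia 29.5 times that of neutrophils (18.9 to 49.0). These intervals cover counting error and not the spread between mice. Most border macrophages came from mouse 2, and the ratio was smaller in mouse 3, at 20188 against 379 CPM. The log2 fold change was 6.95 for border macrophages against microglia (standard error 0.30, edgeR adjusted p = 4.22e-31). As a description, it was −3.39 for neutrophils against microglia (standard error 0.47) and 10.34 for border macrophages against neutrophils (standard error 0.42).

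Lpl had 0 UMIs in neutrophils, and microglia, at 13.2, 11.7 and 13.5 CPM, were at least 6.82-fold above them by library totals, a bound that the TMM factors of these types would lower. Border macrophages had 0, 3 and 1 UMIs of Lpl by mouse, or 1.66 times the microglial level (0.450 to 4.26), and cannot be told apart from microglia. Fabp5 ran the other way, at 1.63, 1.97 and 3.21 CPM in microglia, 48.3, 7.65 and 108 in border macrophages and 31.6, 23.4 and 46.7 in neutrophils. Both types lay above microglia in each mouse, though border macrophages rest on 2, 1 and 2 UMIs. The means were 2.27 ± 0.830, 54.5 ± 50.3 and 33.9 ± 11.8 CPM (SD, n = 3). As a description, the log2 fold change against microglia was 5.38 in neutrophils (standard error 0.40) and 3.84 in border macrophages (standard error 1.06), the latter 3.16 without the V3.0 library of mouse 3. Between border macrophages and neutrophils it was −1.53 (standard error 0.71), which leaves their order unread at 5 UMIs.

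Cst7 stood at 10.6, 10.1 and 8.98 CPM in microglia and had 1 UMI in all neutrophils, so microglia were 16.1 times higher by library totals (2.88 to 638). TMM scaling gave a smaller difference, a log2 fold change of −2.58 in neutrophils against microglia in the fit without the filter (standard error 1.04, edgeR adjusted p = 0.0350). Border macrophages had 0 UMIs of Cst7, but their limit of 15.7 CPM lies above the microglial level. Spp1 in border macrophages was confined to mouse 2, with 13 UMIs from 2 cells (99.5 CPM). Pooled, this is 58.6 times the microglial level (29.7 to 107), while neutrophils were at 1.06 times (0.126 to 3.99).

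Lgals3 stood at 5.29, 5.09 and 4.49 CPM in microglia, at 96.5, 91.8 and 0 in border macrophages and at 942, 791 and 827 in neutrophils. Neutrophils were above every value of the other types, while border macrophages exceeded microglia in mice 1 and 2 only, mouse 3 having 4 such cells. The means were 4.96 ± 0.415, 62.8 ± 54.4 and 854 ± 78.7 CPM (SD, n = 3). As a description, the log2 fold change against microglia was 8.91 in neutrophils (standard error 0.17) and 4.32 in border macrophages (standard error 0.64). Border macrophages against neutrophils had −4.60 (standard error 0.29).

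Cd9 stood at 1753, 1496 and 1597 CPM in microglia, 266, 283 and 323 in border macrophages and 563, 568 and 530 in neutrophils. Microglia were highest and border macrophages lowest in every mouse, with no overlap. The means were 1615 ± 129, 291 ± 29.5 and 554 ± 20.4 CPM (SD, n = 3). Cd9 was lower in border macrophages than in microglia (log2 fold change −2.27, standard error 0.24, edgeR adjusted p = 3.60e-12). In neutrophils against microglia it was −0.05 with TMM (standard error 0.14, edgeR adjusted p = 0.773, range 5.33e-18 to 0.955) and −1.57 with library totals (adjusted p = 5.33e-18), so this result depends on the scaling. In border macrophages against neutrophils it was −2.22 with TMM (standard error 0.25, edgeR adjusted p = 1.18e-11) and −0.94 with library totals. At 2000 UMIs Cd9 was found in 24.4% of border macrophages and 62.5% of neutrophils.

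**Figure D2:**
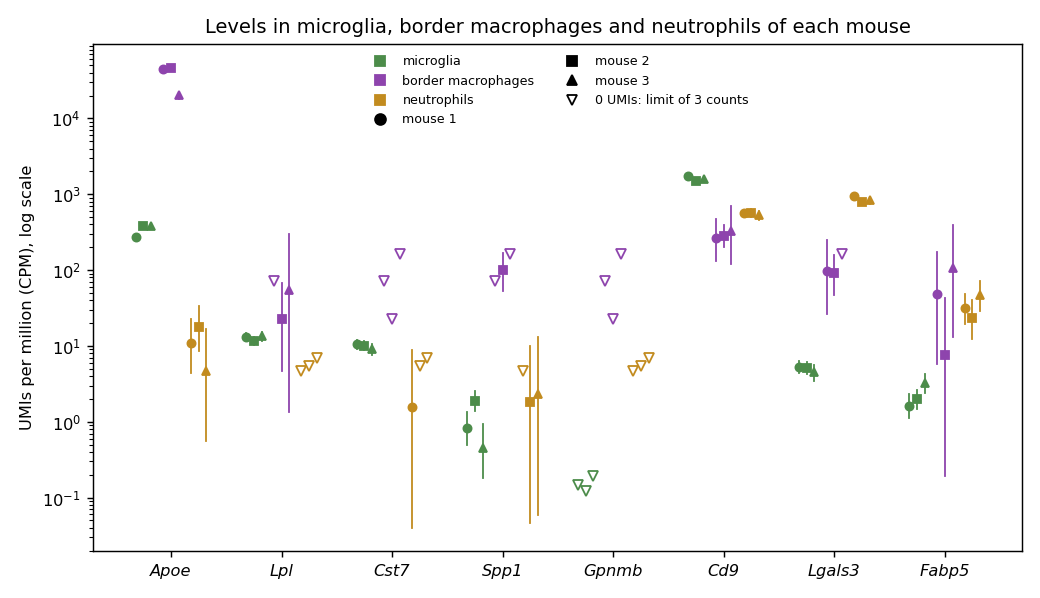
CPM (vertical axis, log scale) of each gene in summed microglia, border macrophages and neutrophils of each mouse, with exact 95% intervals. Apoe is highest in border macrophages (45473, 45865 and 20188), Lgals3 in neutrophils (942, 791 and 827) and Cd9 in microglia (1753, 1496 and 1597).

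Members that belong to 1 cell state would be found together in the same cells more often than their shares alone give. For each pair, cells with both genes at 2000 UMIs were counted per library and compared with the product of the shares, summed over libraries. A ratio was formed where at least 5 cells were expected. Of 28 pairs 10 had a ratio, and in 3 the interval lay above 1, each of them with Apoe. How often pairs of other genes exceed the product of their shares is not given here.

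Apoe and Lpl were found together in 91 microglia against 58.1 expected, a ratio of 1.57 (1.26 to 1.92). By library the ratio was 1.83, 0.628, 1.93, 1.97, 2.91 and 1.30. It was above 1 in 5 of 6 libraries. Apoe and Cst7 shared 78 cells against 44.6 expected, a ratio of 1.75 (1.38 to 2.18), also above 1 in 5 of 6 libraries. Apoe and Lgals3 shared 31 cells against 20.8, a ratio of 1.49 (1.01 to 2.11), above 1 in 4 of 6 libraries. Apoe with Fabp5 (17 cells against 10.8) and Apoe with Cd9 (2680 against 2649) had intervals that include 1, as had the pairs of Cd9 with other members, while Apoe with Spp1 (6 against 2.64) and every pair with Gpnmb formed no ratio.

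Pairs with neither Apoe nor Cd9 were too rare for a ratio. Lpl and Cst7 shared 14 cells against 4.98 expected, Lpl and Lgals3 13 against 2.36, and Cst7 and Lgals3 7 against 1.82. Without thinning 14 pairs had a ratio and in 7 the interval lay above 1, among them Lpl with Cst7 (2.29), Lpl with Lgals3 (3.70) and Cst7 with Lgals3 (4.15). Unthinned pairs also reflect depth, since a cell with more UMIs is more often positive for both genes.

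Leaving out Cd9, 12650 microglia (78.9%) had none of the other 7 genes, 3172 (19.8%) had 1, and 216 (1.35%) had 2 or more against 145 expected. Cells with 3 or more of these genes numbered 19 against 2.27 expected, with 0, 2, 3, 5, 1 and 8 by library. Of the 19 cells, 18 had Apoe, 15 Lpl, 14 Cst7, 11 Lgals3, 2 Spp1, 2 Fabp5 and 0 Gpnmb. Their median of the 4 microglial gate genes was 16 UMIs against 31 in the remaining microglia, at medians of 4249 and 3540 UMIs per cell. A cell of the V3.1 library of mouse 2 had 5 of the genes, with 71 UMIs of Apoe, 2 of Lpl, 1 of Cst7, 3 of Spp1 and 4 of Lgals3. The expected numbers take the genes as independent, and no value for other sets of genes is set beside them. Whether the 19 cells form a state of their own was not tested.

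**Figure D3:**
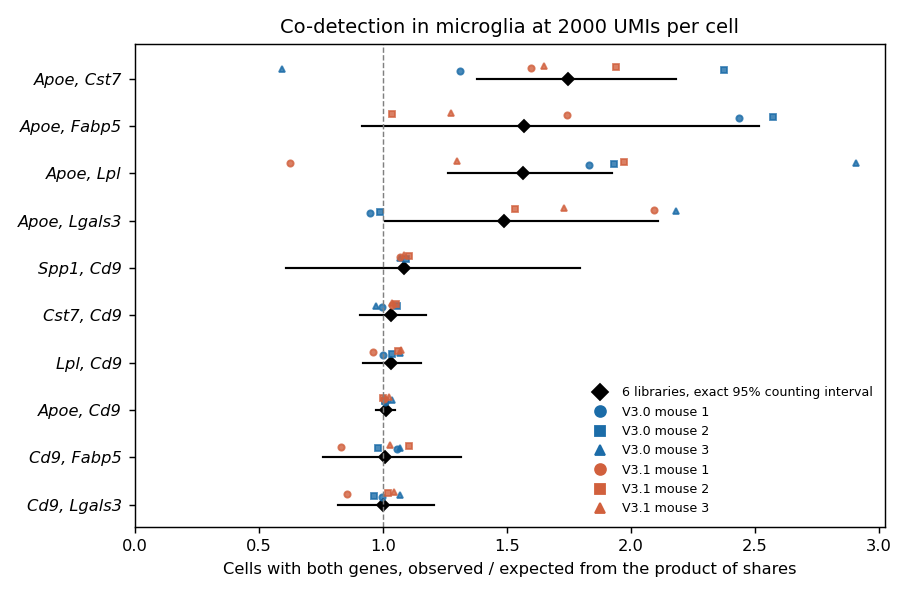
Microglia with both genes of a pair, observed over expected (horizontal axis), for pairs with at least 5 expected cells, pooled with exact 95% intervals and by library. The intervals of Apoe with Cst7 (1.75), Lpl (1.57) and Lgals3 (1.49) lie above 1.

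In disease, members go up as homeostatic genes go down in the same cells. For Apoe, Lpl, Cst7, Fabp5 and Spp1, thinned microglia with and without a UMI were summed per library, and 13 homeostatic genes were compared between the sums. Lower or higher in all 6 libraries was the rule, set beside the percent of all genes of at least 50 CPM that met it. This background was not matched for level. The 13 genes stood at 300 (Slc2a5) to 58172 CPM (Cst3) in microglia without Apoe. A small shift is more easily seen in every library for abundant genes. Gate genes were not among the 13. No p was computed.

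Microglia with Apoe were lower in 8 of 13 homeostatic genes in all 6 libraries, against 9.35% of all genes, and higher in 1. Cx3cr1 stood at 3998 CPM with and 4311 without Apoe, P2ry13 at 458 and 509, and Slc2a5 at 258 and 300.4. The differences were small, at a mean log2 ratio of −0.11 ± 0.05 (SD, n = 6 libraries) for Cx3cr1 and −0.23 for Slc2a5. Cst3 was higher in all libraries, at 63079.6 against 58172 CPM, and as it takes most of the sum, the sum of the 13 genes was higher in cells with Apoe (0.06).

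Microglia with Lpl were lower in 7 of 13 and higher in 0, against 4.49% of all genes. Mertk stood at 420.1 CPM with and 562 without Lpl, Fcrls at 1248 and 1606, and Sall1 at 341 and 427. The sum of the 13 genes was lower in 6 of 6 libraries, at 81256 against 88843 CPM. Microglia with Cst7 were lower in 5 of 13 and higher in 0, against 4.41% of all genes, with Slc2a5 at 206 and 295 CPM. Those with Fabp5 were lower in 1 (Fcrls, against 3.67%) and those with Spp1 in 0 (against 13.3%, from 15 cells). The background leaned to lower, with 2.27% of all genes higher in all 6 libraries for Lpl and 0.356% for Spp1.

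**Figure D4:**
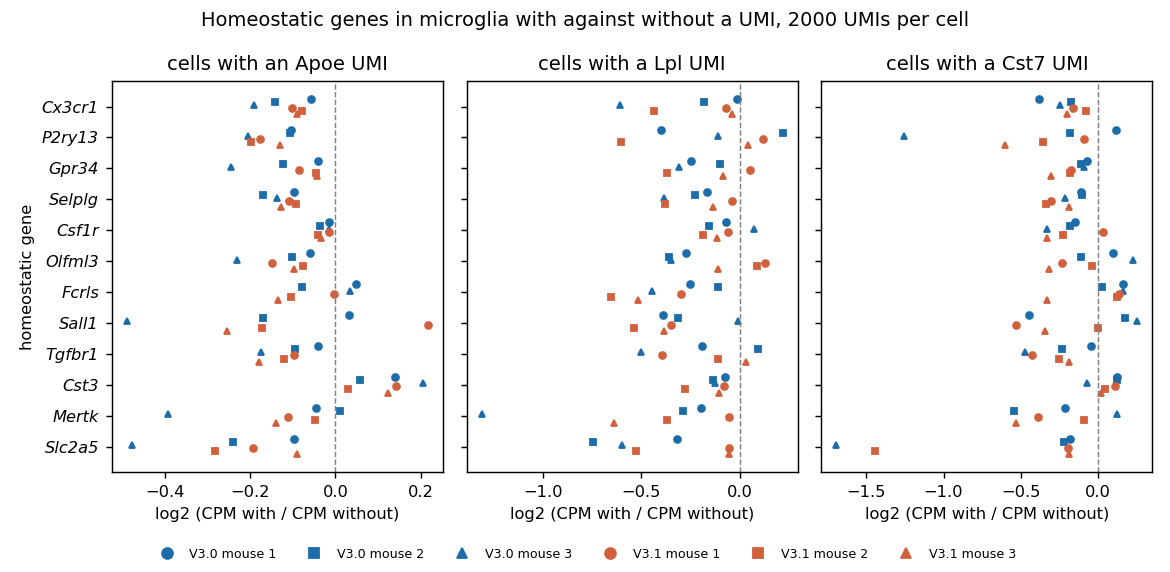
Log2 ratio of CPM of 12 of the 13 homeostatic genes (vertical axis) between microglia with and without an Apoe, Lpl or Cst7 UMI (panels), a point per library. Genes with all points left of 0 number 8 for Apoe, 7 for Lpl and 5 for Cst7.

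A further 41 genes reported to rise in disease-associated microglia, grouped as receptors, lysosome, lipid, secreted and others, show whether the members behave like the wider program. Between kits edgeR called 2 of 38 tested higher with V3.1 and 0 lower (DESeq2 also 2), against 1.51% and 1.53% of all genes, with a median log2 fold change of 0.02. They were Lilrb4a, at 0.877, 3.17, 1.60, 5.31, 1.63 and 1.76 CPM (log2 fold change 1.37, edgeR adjusted p = 0.0440), and Ccl4, at 14.2, 26.7, 16.4, 18.5, 10.1 and 25.7 CPM (0.73, edgeR adjusted p = 0.00974). Of the homeostatic genes 0 of 13 were called by edgeR and by DESeq2, with 2 at an unadjusted p below 0.05 and a median of 0.01. With inhibitors, a comparison of 1 mouse against 2 in which the single mouse is assumed to vary like the others, edgeR called 1 of 38 higher (against 0.192% of all genes) and DESeq2 called 0. This gene, Cybb, stood at 2.62, 6.94 and 3.66 CPM by mouse (1.18, edgeR adjusted p = 0.0408), and 0 of 13 homeostatic genes were called by either tool. The medians were 0.03 and −0.05. Cybb averaged 616 CPM in border macrophages and 1220 in neutrophils. The V3.0 and V3.1 libraries of the inhibited mouse held 19 and 12 of the 45 border macrophages. They also held 47 and 28 of the 113 monocytes. Whether RNA of such cells adds to Cybb in microglia was not tested.

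In border macrophages against microglia 18 of 34 tested genes were higher and 4 lower, against 7.47% and 6.31% of all genes, with a median of 0.69, while 12 of 13 homeostatic genes were lower, with a median of −2.33. By group the higher and lower genes were 4 and 1 of 7 receptors, 4 and 2 of 8 lysosomal genes, 3 and 0 of 4 lipid genes, 2 and 1 of 5 secreted and 5 and 0 of 10 others. The genes below the filter's 18.0 CPM in 1 of the types include Lilrb4a, Cybb and Axl, which are low in microglia. They also include Capg and Ank, which were not called. A difference in such genes is favoured, though not fixed, by a filter at this level. Of the 28 genes above it in both types, 15 were higher and 3 lower, against 7.48% and 5.19% of all such genes, with a median of 0.69, and 10 of 11 homeostatic genes were lower. Lyz2 (5.45) and Anxa5 (3.58) were among the higher. The cap on microglial gate genes in border macrophages favours lower homeostatic genes there. Of the homeostatic genes, Selplg (−3.81) and Gpr34 (−2.86) were lower, and Sall1 and Slc2a5, like the secreted Serpine2, had 0 UMIs in border macrophages.

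In neutrophils against microglia 13 of 34 were higher and 17 lower, against 30.1% and 38.8% of all genes, a split that depends on the scaling as it does for all genes, and 13 of 13 homeostatic genes were lower, with a median of −5.41. The median of the 34 was −1.13, and −0.18 with Abca1, Cadm1, Ank and Axl, which had 0 UMIs in neutrophils, set at their bounds. Of the receptors 4 were higher and 3 lower, of the lysosomal genes 1 and 7, of the lipid genes 2 and 2, of the secreted 1 and 2, and of the others 5 and 3. Of the 20 genes above 18.0 CPM in both types, 11 were higher and 6 lower, against 53.0% and 13.1% of all such genes, with a median of 0.87, and 7 of 7 homeostatic genes were lower. Lyz2 (6.13), Capg (5.24) and Cd52 (5.0) were among the higher. The neutrophil gate had the same cap on microglial gate genes, which favours lower homeostatic genes. In border macrophages against neutrophils 20 were higher and 8 lower, against 19.6% and 22.6% of all genes, with a median of 1.16, and 10 homeostatic genes were higher and 1 lower, with a median of 2.82. By group these were 3 and 4 receptors, 8 and 0 lysosomal, 2 and 0 lipid, 2 and 1 secreted and 5 and 3 other genes. Of the 21 genes above 18.0 CPM in both types, 9 were higher and 7 lower, against 10.3% and 36.9% of all such genes, with a median of 0.51, and 6 of 7 homeostatic genes were higher. Trem2 (4.37) was higher, and Ccl6 (−3.85), Cd52 (−2.99), Cybb (−2.29) and Selplg (−1.78) were lower.

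Genes whose levels followed a member over the 9 sums of type and mouse were ranked by Pearson r of log2 CPM among 9499 genes. The sums come from few cell types, so a high r mainly follows differences between types and not between mice. CPM is not scaled by TMM. Apoe was closest to ribosomal genes (Rps13 0.996, Rpl27 0.992, Rpl37a 0.991). Lgals3 was closest to Ripor2 (0.991), Emb (0.991) and Ezr (0.988), and Cd9 to Fbxl4, Zfp280c and Tmem100 (each 0.994). Fabp5 was closest to Fam111a (0.980), Dph3 (0.969) and Sh3bp5 (0.959), a ranking that rests on 5 UMIs in border macrophages. Spp1 reached the 5 CPM needed only through border macrophages of mouse 2, and Lpl had 0 UMIs in neutrophils and 4 in border macrophages, so genes near them would follow few UMIs and are not given. Cst7 was below this level.

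The shares count cells with a captured UMI and do not measure how many cells express a gene. Border macrophages number 45, with 4 in mouse 3, and where in the tissue they lay is not known. The inhibitor comparison rests on 1 mouse, and all mice were young males without disease, so levels in disease cannot be read from these data. Free RNA was traced for neutrophils only. Protein was not measured.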

How the data were processed

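The authors deposited, per the file headers, counts of UMIs per gene and barcode from Cell Ranger 5.0.0 on mm10, with no normalization, before their own filter on cells and doublets, whose limits their methods do not state for this experiment. From these counts cells were filtered, gated and thinned with pandas 2.3.3, numpy 2.4.6 and scipy 1.17.1 in Python 3.11.15, and drawn with matplotlib 3.10.9. Gates exclude each other, so a cell with markers of 2 types met none, in place of a doublet caller. In R 4.3.3, edgeR 4.0.16 (quasi-likelihood test, TMM, filterByExpr) tested sums of UMIs, and DESeq2 1.42.0 was an alternative; the fits were tested on simulated data. Shares of the libraries went through an exact permutation test, two-sided, unadjusted and without pairing the libraries of a mouse. For a gene at 0, the limit is 3 counts over the group's total.

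The members and gene lists were chosen with earlier results of these data known. Genes named are the members, the marker checks, up to 5 called list genes with the largest change in each direction that moved alike in every mouse or pair, and the 3 genes nearest each member by correlation; the pairs of homeostatic values printed for cells with a member were chosen after their values were seen. IDs of 32158 features matched GENCODE M21, whose mm10 coordinates are given. Libraries of the same mouse pair across the kits because they come from the same animal, and their deviations correlated at r = 0.256, 0.383 and 0.106; sums of cell types of a mouse correlated between −0.00966 and 0.0366. Alternatives were DESeq2, no filter on low counts, other depths and gates, the mouse as a block and leaving out each mouse.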

Additional observations from a re-analysis of the deposited data

Results flagged for a closer look

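In groups of 6 libraries, a sample was set apart when its gap to the next, over the whole range, passed Dixon's 95% critical value. Of 17 groups tested 3 had such a library, where chance gives about 1 in 20. The V3.0 library of mouse 3 was low in barcodes kept (21.5%) and in median UMIs per barcode (809). The V3.1 library of mouse 2 was high in microglial Spp1 (3.88 CPM), of which 1 cell gave 29 of 41 UMIs.

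Some effects had opposite signs in 2 sets of samples, and the differences were not tested. With inhibitors Lpl was lower by V3.0 (−3.66 CPM) and higher by V3.1 (2.12), and Spp1 was lower by V3.0 (−0.401) and higher by V3.1 (3.29). Fabp5 was higher with V3.1 in microglia (0.559 CPM) and neutrophils (9.32) and lower in border macrophages (−112), the last from 5 UMIs.

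Cells outside the comparisons also carried members. Monocytes had Apoe at 2281 CPM against 347 in microglia, Lgals3 at 941 against 5.003 and Fabp5 at 49.8 against 2.18. T or NK cells had Cst7 at 247 CPM against 9.97 and Spp1 at 25.6 against 1.16, the latter from 3 UMIs.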

How the results depend on the processing

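Of 467 recomputed values, 425 stayed by the rule of their kind, 3 lost a call, 6 gained one, 20 changed sign and 13 moved. A tested fold change stayed when it kept sign and call, and a share difference when it kept its sign. An untested fold change stayed when within the standard error of the main fit. Counts of called genes stayed within a set factor of the main count, and co-detection ratios within the main interval. Library totals in place of TMM, the microglia gate with up to 10 neutrophil marker UMIs, the wide border macrophage gate and leaving out the V3.0 library of mouse 3 were chosen after seeing the data. The cause of these changes was not tested.

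Leaving out each mouse in turn, genes called between kits numbered 171 to 413, in border macrophages against microglia 599 to 928 and against neutrophils 2108 to 2977. With inhibitors, 45 genes were called, 16 by DESeq2, 107 without the filter on low counts, 28 with at least 500 genes per cell, 106 with the wider microglia gate and 75 with V3.0 alone. With the mouse as a block, pairing the libraries, 536 genes were called between kits, and in the comparisons of types 1006, 5026 and 3052. Lgals3 between kits then had an adjusted p of 0.0232 by edgeR. Its log2 fold change rounded to 0.58 but lay under the threshold, and the block changed the call of no member.

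Some log2 fold changes changed sign. That of Spp1 with inhibitors was not near 0 in the main fit. Between kits, Apoe was −0.0169 with at least 500 genes and −0.00128 to 0.174 leaving out a mouse, and Lpl was −0.00667 to 0.587 leaving out a mouse. With inhibitors and V3.0 alone, Cst7 was −0.0340, Fabp5 0.285 and Spp1 −1.13; with V3.1 alone Lpl was 0.22; with at least 500 genes Lgals3 was −0.0744. Leaving out a mouse without inhibitors, Cst7 was −0.0394 to 0.169, Fabp5 −0.674 to 0.284 and Lgals3 −0.0276 to 0.179, with no test. Cd9 in neutrophils against microglia was 0.0765 with at least 500 genes.

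Differences in share between kits, in percentage points, changed sign for Spp1 (−0.0651 to 0.103 leaving out a mouse, −0.00134 with the wider gate), Cd9 (0.0254 at 3000 UMIs) and Lgals3 (−0.214 to 0.00513 leaving out a mouse, 0.0671 without the V3.0 library of mouse 3, 0.0111 not thinned, 0.164 at 3000 UMIs). The interval of co-detection lay above 1 in 7 of 14 pairs when not thinned.

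Spp1 with inhibitors gained a call by edgeR with V3.1 alone (2.76, adjusted p = 0.0314) and when low counts were left unfiltered (1.52, adjusted p = 0.0359). Fabp5 changed its call in border macrophages against microglia and against neutrophils, where its fold changes serve as description.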
